A study of Mus musculus with 8 samples.

Results

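Dpt, Mfap5, Lyve1 and Myocd mark the supporting tissue of the colon rather than its epithelium, and their RNA levels were followed in mouse colon tumours. The 4 genes were taken by name from the authors' table of 1428 genes, where all 4 were found. Dpt and Mfap5 stand for fibroblasts, Lyve1 for lymphatic endothelium and Myocd for smooth muscle. RNA sequencing had been run on colon tumour tissue of C57BL/6N mice, 4 libraries labelled wild type (WT) and 4 labelled miR-29ab1Vilin-KO (KO). KO mice had miR-29ab1 disrupted conditionally in the intestinal epithelium, under a driver that the labels name Vilin. Tumours had been induced with azoxymethane, a carcinogen that acts on the colon, and the colitis agent dextran sodium sulfate; the design text names this treatment for the KO mice, and the WT libraries are likewise labelled colon tumour. Doses, ages, and whether WT mice carried a Cre or a floxed allele were not stated. Nothing in the labels ties the libraries to separate mice, and p-values therefore cover only the variation among these libraries, part of which may be technical.

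Dpt encodes dermatopontin, a small extracellular matrix protein that binds decorin and helps collagen fibrils assemble. Mfap5 encodes a glycoprotein of the fibrillin microfibrils that carry elastic fibres, made by adventitial fibroblasts. Lyve1 encodes a hyaluronan receptor on lymphatic endothelium, which some resident tissue macrophages also carry. Myocd encodes myocardin, a coactivator that joins serum response factor on the promoters of smooth muscle contractile genes. All of these cells lie outside the epithelium, where the disruption was made. In bulk tumour tissue, fewer cells of a type and less RNA per cell cannot be told apart.

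The microRNA under study acts by pairing its seed with the 3′ ends of messenger RNAs, so the mature miR-29 sequences and the matches in these genes are shown first. The sequences are those of RefSeq (GRCm38.p6), 5′ to 3′, with the seed, bases 2 to 8, in capitals. The first 2 are the products of Mir29a (chr6:31062673-31062694, minus strand) and Mir29b-1 (chr6:31063025-31063047, minus strand), and the third is from Mir29c on chromosome 1. The same mature miR-29b-3p is also encoded by Mir29b-2 (chr1:195037091-195037113, plus strand).
miR-29a-3p: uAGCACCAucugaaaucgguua
miR-29b-3p: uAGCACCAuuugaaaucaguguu
miR-29c-3p: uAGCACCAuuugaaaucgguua
All 3 share the seed AGCACCA, whose match in a transcript is TGGTGCT. The longest annotated 3′ untranslated region (UTR) of each gene in GENCODE M21 (GRCm38, C57BL/6J) was searched on the transcript strand. No match was found in the UTRs of Dpt (1030 bases), Lyve1 (1565 bases) or Myocd (1884 bases), which says only that these letters are not in those windows. Mfap5, with 859 bases, held 2 matches, shown with their flanks and with the seed match in capitals.
Mfap5 UTR position 144: tctaattttcacTGGTGCTggtaacgt
Mfap5 UTR position 367: attttttttaaaTGGTGCTatgaattg
The first match lies at chr6:122528575-122528581 and the second at chr6:122528798-122528804, both on the plus strand. The second is followed by an A, which lengthens the canonical pairing site. Of the annotated Mfap5 transcripts that use this stop codon, those with UTRs of 201 and 335 bases keep the first match alone. Across 21020 genes with an annotated 3′ UTR, 13.1% held at least 1 match and 2.03% held 2 or more. Among 2824 genes with a UTR of 688 to 1073 bases, near that of Mfap5, 8.99% held at least 1. A match is a description of the sequence and does not show that the site is used.

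The levels are normalized counts, which are reads per gene divided by a size factor for each library. They correspond to whole reads, with between 1202677 and 2180787 reads per library in the listed genes, a sum that is not the library depth. The deposited table holds genes with an unadjusted DESeq2 p below 0.05, the largest listed being 0.04999. They are 1410 of 19985 tested genes (7.06%) and 18 more that carry an adjusted p of 1. Differences among the listed genes are therefore larger on average than in an unselected set, and being listed is not a result about these 4 genes. KO replicate 4 stood apart, exceeding the other KO libraries in 622 of 829 genes that were listed higher (75.0%). It was the highest KO library in Dpt and in none of the other 3. Of 16 B cell genes, 14 were listed (87.5%, against 7.15% of all genes). Their summed levels were 162.3 to 393.6 in WT and 286.3 to 4125 in KO. Here and below, the 7.15% sets all 1428 listed genes, the 18 included, against the 19985. The share of a list instead counts every symbol in it, tested or not, so the 2 bases are unlike. Of 20 colonocyte genes, 7 were listed (35.0%), with sums of 58415 to 120096 in WT and 127733 to 311724 in KO. Most of the colonocyte sum was 1 gene, Lypd8, at 39837 to 98114 in WT and 101311 to 243970 in KO. The B cell and colonocyte sums were both highest in KO replicate 4, and the part of these cells in the results below was not tested. Lgals4, a galectin of gut epithelium, was listed higher in KO, averaging 44476 ± 17412 normalized counts (SD, n = 4) against 26544 ± 8759 in WT. Its libraries lay between 13988 in WT replicate 4 and 70224 in KO replicate 4. Without KO replicate 4 the ratio moved from 1.68 to 1.35. Of 10 general epithelial genes, the other 9 were not listed.

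The first comparison asked whether RNA of the 4 stromal genes differed between KO and WT tumours. All 4 had higher means in KO, by 1.88 times for Dpt, 2.18 times for Lyve1, 3.92 times for Mfap5 and 4.25 times for Myocd, where 58.1% of the listed genes were higher. None of the 4 passed an adjusted p of 0.05 in the authors' deposited table, where 0.560% of the listed genes did. By edgeR's quasi-likelihood test, refitted on the recovered reads, 2 of the 4 were below an unadjusted p of 0.05 and higher in KO. That compares with 78.2% of the 829 genes listed higher, and 45.4% of all 1428 listed genes. Of the 4, 0 passed after adjustment, nor did any of the 1428 listed genes (0.00%), so this says nothing about the 4. The DESeq2 refit put all 4 below an unadjusted p of 0.05, as it did 94.9% of the listed genes, and none of the 4 below an adjusted p of 0.05, against 2.59%. The 4 KO libraries lay wholly above the 4 WT libraries in 1 of the 4 genes, Mfap5. They did so in 342 of the 1428 listed genes (23.9%), a base that includes the 599 listed lower.

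**Figure D1:**
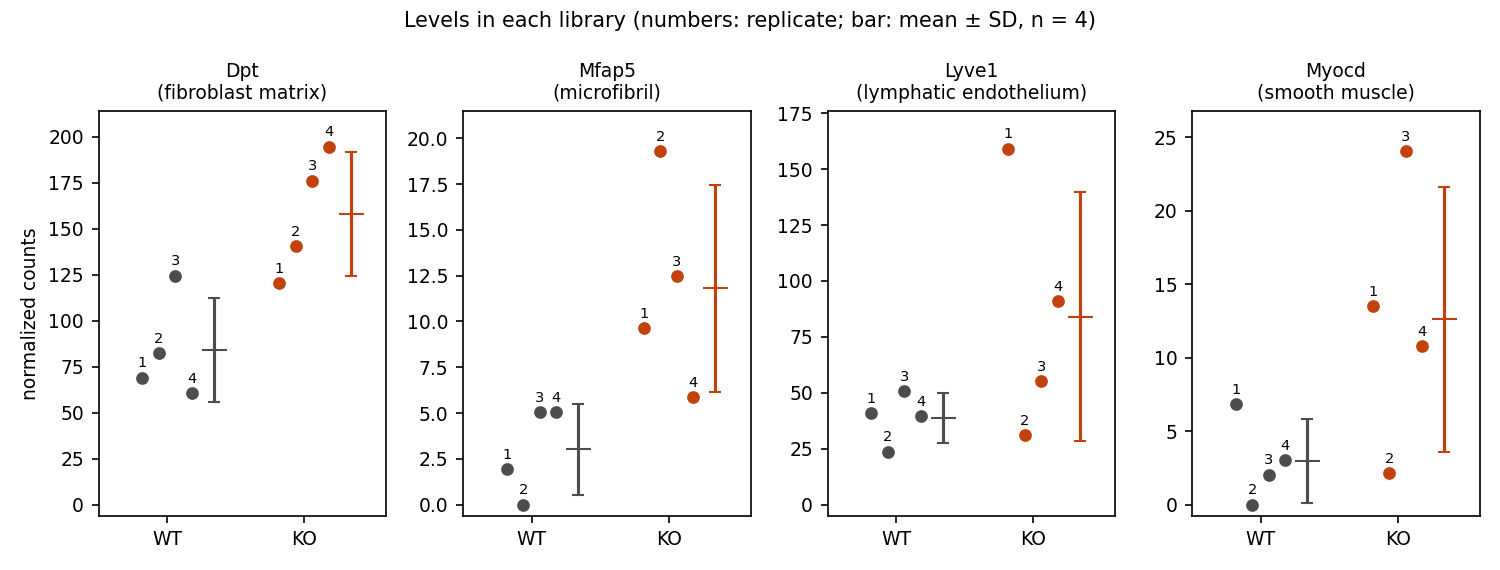
Normalized counts of Dpt, Mfap5, Lyve1 and Myocd (vertical axes, each with its own scale) in 4 WT and 4 KO libraries; points are libraries, small numbers give the replicate, and bars show the mean ± SD (n = 4). A different KO library is highest in each gene: KO replicate 4 for Dpt at 194.7, replicate 2 for Mfap5 at 19.3, replicate 1 for Lyve1 at 159.1 and replicate 3 for Myocd at 24.0.

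Dpt, the collagen-binding matrix gene, was the most abundant of the 4. In WT replicates 1 to 4 it stood at 69.1, 82.2, 124.4 and 60.7 normalized counts, and in KO replicates 1 to 4 at 120.5, 140.4, 176.2 and 194.7. KO replicates 2, 3 and 4 exceeded every WT library, while KO replicate 1 lay just below WT replicate 3, so the groups overlapped at that pair. The group means (± SD, n = 4 each) were 157.9 ± 33.6 in KO and 84.1 ± 28.3 in WT. Counting alone would give SDs of 12.4 and 9.20, so most of the spread lay between libraries. For Dpt the authors' deposited table holds a log2 fold change of 0.91 and an adjusted p of 0.43 from DESeq2, the lowest adjusted p of the 4, and a DESeq2 refit gave it a standard error of 0.30. Dpt, identified as MGP_C57BL6NJ_G0017089, lies on chromosome 1 from 175956031 to 175983639 on the plus strand in the table's C57BL/6NJ coordinates.

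Mfap5, the microfibril gene, was rare. WT replicates 1 to 4 held 1.95, 0, 5.06 and 5.06 normalized counts, and KO replicates 1 to 4 held 9.64, 19.3, 12.5 and 5.87. Every KO library was above every WT library, but KO replicate 4 and WT replicates 3 and 4 were separated by a single read, 6 against 5 and 5. The 0 in WT replicate 2 allows a level of up to 3.08 normalized counts, counting error only. Over all libraries Mfap5 rested on 48 reads in KO and 12 in WT. The means (± SD, n = 4 each) were 11.8 ± 5.67 in KO and 3.02 ± 2.49 in WT, where counting alone would give SDs of 3.40 and 1.74. For Mfap5 the authors' deposited table holds a log2 fold change of 1.97, with a DESeq2 adjusted p of 0.656 and a standard error of 0.84 in the refit. Mfap5, MGP_C57BL6NJ_G0031664, spans chromosome 6 from 128879881 to 128902934 on the plus strand.

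Lyve1, the lymphatic hyaluronan receptor, varied most among the KO libraries in relation to its spread in WT. The WT libraries held 40.9, 23.6, 50.6 and 39.5 normalized counts in replicates 1 to 4. The KO libraries held 159.1, 31.1, 55.2 and 91.0. KO replicate 1 was 4.12 times the WT mean, whereas KO replicate 2 was 0.80 times it and lay among the WT libraries. The means (± SD, n = 4 each) were 84.1 ± 55.7 in KO and 38.6 ± 11.2 in WT. The KO spread was several times the SD of 9.06 that counting gives. The authors' deposited table has a log2 fold change of 1.12 and a DESeq2 adjusted p of 0.68, with a standard error of 0.53 in the refit. Leaving out KO replicate 1 lowered the ratio of means to 1.53. Lyve1, MGP_C57BL6NJ_G0033355, lies on chromosome 7 from 119087022 to 119099639 on the minus strand.

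Myocd, the smooth muscle coactivator, was as rare as Mfap5. WT replicates 1 to 4 held 6.81, 0, 2.02 and 3.04 normalized counts and KO replicates 1 to 4 held 13.5, 2.14, 24.0 and 10.8. KO replicates 1, 3 and 4 exceeded every WT library, and KO replicate 2, with 2 reads, lay below WT replicates 1 and 4. The 0 in WT replicate 2 allows up to 3.08 normalized counts. The means (± SD, n = 4 each) were 12.6 ± 9.02 in KO and 2.97 ± 2.86 in WT, from 54 and 12 reads. For Myocd the authors' deposited table holds a log2 fold change of 2.09, the largest of the 4, with a DESeq2 adjusted p of 0.696 and a standard error of 1.01 in the refit. WT replicate 1 held 7 of the 12 WT reads, and without it the ratio of means moved from 4.25 to 7.48. Myocd, MGP_C57BL6NJ_G0018868, lies on chromosome 11 from 67350847 to 67452223 on the minus strand.

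Levels can be compared between the genes only per length, here as normalized counts per kilobase of the table's gene length. Dpt stood first, at 91.6 in KO against 48.8 in WT. Lyve1 followed at 32.3 in KO against 14.8 in WT, and the lowest Dpt library in KO, at 69.9, was above the highest Lyve1 library, at 61.0. Mfap5 at 3.85 in KO and 0.98 in WT, and Myocd at 1.96 and 0.46, came last. Their libraries overlapped in both groups, with Mfap5 between 1.92 and 6.29 and Myocd between 0.33 and 3.74 in KO. The order of Mfap5 and Myocd therefore did not exceed their spread.

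The 4 genes did not share a library pattern. KO replicates 3 and 4 exceeded every WT library in all 4 genes, KO replicate 1 in 3 and KO replicate 2 in 2. KO replicate 2 was the highest KO library for Mfap5 and the lowest for both Lyve1 and Myocd. KO replicate 4 was the highest for Dpt and the lowest for Mfap5. WT replicate 2 was the lowest WT library in 3 genes, Mfap5, Lyve1 and Myocd, while WT replicate 4 was the lowest in Dpt. After each group's mean was subtracted on the log2(normalized count + 1) scale, Pearson's r over the 8 libraries was 0.59 between Lyve1 and Myocd, 0.21 between Mfap5 and Myocd, and between -0.05 and 0.02 in the other 4 pairs. These correlations describe 8 libraries, in which Mfap5 and Myocd rest on few reads.

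The second comparison set the 4 genes beside 19 lists of stromal, vascular, muscle, nerve, fat and matrix genes. Of their 322 symbols, tested or not, 31 were listed (9.63%), beside 7.15% for the 19985 tested genes, an unlike base. Of the 31, 18 were higher and 13 lower in KO, the same 58.1% higher as among all listed genes, so nothing is read from the split. In all, 0 of the 31 passed an adjusted p of 0.05 in the authors' DESeq2 table. By edgeR's quasi-likelihood test on the recovered reads, 11 of the 18 and 8 of the 13 kept an unadjusted p below 0.05 in the same direction, against 78.2% of all genes listed higher and 77.5% of those listed lower, 77.9% together. With the replicate number as a block, those counts were 8 and 7, against 39.1% and 39.2%. The median log2 fold change of the 31 in the authors' deposited table was 0.71, against 0.48 over all listed genes, and it was 0.28 for the 27 other than the 4 described here. Those medians were the same with the 2 genes that were 0 in one whole group set at the bound that 3 reads allow. Most genes that define these cells were not listed and have no value here, so no direction can be given for any of these lists as a whole.

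Of 34 fibroblast genes, 3 were listed (8.82%), Dpt, Mfap5 and Ogn, all higher, and of 23 microfibril and elastic fibre genes, 2 (8.70%), Mfap5 and Efemp1, both higher. These shares are near the 7.15% of all genes, and Dpt and Mfap5 were taken by name, so Ogn and Efemp1 are the 2 genes these lists add. Ogn, which encodes the leucine-rich proteoglycan osteoglycin, averaged 146.3 ± 91.6 normalized counts (SD, n = 4) in KO, and its WT libraries lay between 31.1 and 72.8. Its KO libraries held 94.5, 52.5, 179.7 and 258.3 in replicates 1 to 4, so it was highest in KO replicates 4 and 3, as Dpt was. Efemp1, which encodes fibulin-3, averaged 85.1 ± 41.0 in KO against 35.6 ± 14.2 in WT, with 28.9 in KO replicate 1, inside the WT range. Dpt was the 1 listed gene of 25 collagen fibril assembly genes, a list that also holds the decorin and biglycan genes. The fibrillar collagens Col1a1, Col1a2 and Col3a1 and the receptor genes Pdgfra and Pdgfrb were not listed.

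Of 3 further lists of fibroblast and matrix genes, between 4.55% and 8.33% of the members were listed, near the share of all genes, and the 4 listed genes were lower in KO. Grem1, a secreted BMP antagonist of the crypt niche, was the 1 listed gene of 18 and was lower, averaging 249 ± 147 normalized counts (SD, n = 4) in KO against 536 ± 287 in WT. Of 24 myofibroblast and tumour fibroblast genes, 2 were listed, both lower, the matrix metalloproteinase genes Mmp3 and Mmp13. Mmp3 averaged 36.0 ± 9.16 in KO against 234 ± 210 in WT. All 4 of its KO libraries, between 24.5 and 46.3, lay below the WT libraries. Those fell into a low pair, replicates 1 and 2 at 55.4 and 48.3, and a high pair, replicates 3 and 4 at 417.7 and 414.8. Of the 1428 listed genes, 296 were below without overlap (20.7%), a base that includes the 829 listed higher. Mmp13 averaged 593 ± 375 in KO against 2894 ± 2853 in WT, with 6851 in WT replicate 3, without which the ratio of KO to WT moved from 0.20 to 0.38. Col7a1, which encodes the anchoring fibril collagen, was the 1 listed gene of 22 matrix genes described as miR-29 targets, and was lower, averaging 131.2 ± 76.9 in KO against 351 ± 314 in WT. Its ratio moved from 0.37 to 0.61 without WT replicate 4. WT replicates 3 and 4 held 440.9 and 756.8, against 119.6 and 86.3 in WT replicates 1 and 2. The KO libraries of Col7a1, between 37.2 and 203.8, overlapped that lower pair. WT replicates 3 and 4 were also the highest WT libraries for Mmp13, at 6851 and 3097, and for Grem1, at 728 and 818. The 4 genes thus share their 2 highest WT libraries, and the cause was not tested.

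Beside Lyve1, the lymphatic list of 22 genes had 1 more listed member, Mmrn1, which encodes multimerin-1 of lymphatic endothelium and platelets. Of that list 9.09% were listed, against 7.15% of all genes. Mmrn1 held 14.6, 3.08, 17.2 and 29.3 normalized counts in WT replicates 1 to 4 and 113.8, 31.1, 44.5 and 16.6 in KO replicates 1 to 4. Like Lyve1 it was highest in KO replicate 1, and in WT it was lowest in replicate 2, but KO replicate 4, second for Lyve1, was lowest for Mmrn1. Its means were 51.5 ± 43.0 (SD, n = 4) in KO against 16.1 ± 10.8 in WT, and without KO replicate 1 the ratio moved from 3.21 to 1.91. Prox1, Flt4 and Pdpn, which also mark this endothelium, were not listed, nor was any of 20 blood endothelial genes. Of 17 genes of resident macrophages that can carry Lyve1, Lyve1 itself was the 1 listed.

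Of 17 hyaluronan genes, 3 were listed (17.6%, against 7.15% of all genes), 2 higher and 1 lower. Has3, a hyaluronan synthase, averaged 46.2 ± 8.37 normalized counts (SD, n = 4) in KO against 75.6 ± 4.59 in WT. All 4 KO libraries lay below all 4 WT libraries, as in 20.7% of the listed genes, a base that includes the 829 listed higher. Hapln1, which encodes a link protein that ties hyaluronan to proteoglycans, rested on 25 KO reads and 1 WT read and is given no fold, with 17.6 of its normalized counts in KO replicate 4.

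Of 30 contractile and structural genes of smooth muscle, 2 were listed (6.67%), Cald1 and Ckb, both lower in KO, and the other 28 have no value here. Cald1, which encodes caldesmon, an actin-binding regulator of contraction, averaged 1049 ± 324 normalized counts (SD, n = 4) in KO against 1680 ± 467 in WT. Ckb, the brain-type creatine kinase, averaged 662 ± 328 in KO against 1513 ± 639 in WT, with KO replicate 3, at 1130, above WT replicates 1 and 2. The contractile genes Myh11, Acta2, Tagln and Cnn1, known targets of myocardin, were not listed. KO replicate 3, the highest for Myocd, was also the highest KO library for Cald1 at 1521 and for Ckb.

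Of 24 genes for myocardin family members, serum response factor and their regulators, 6 were listed (25.0%, against 7.15% of all genes). Of the 6, 4 were higher and 2 lower, where 58.1% of the listed genes were higher. The partner gene Srf was not listed. Fhl2, a LIM-domain cofactor, averaged 791 ± 327 normalized counts (SD, n = 4) in KO against 1331 ± 295 in WT, and Hopx, which encodes a homeodomain protein that binds serum response factor, at 870 ± 147 and 1257 ± 106. All 4 KO libraries of Hopx lay below all 4 WT libraries, as in 20.7% of the listed genes, a base that includes the 829 listed higher. Hdac4, a class II histone deacetylase gene, averaged 805.5 ± 7.59 in KO against 665.0 ± 44.8 in WT, with no overlap between the groups. Klf5 averaged 4938 ± 665 in KO against 3231 ± 1012 in WT, also without overlap. Of the listed genes, 23.9% lay wholly above in KO, as Hdac4 and Klf5 did, a base that includes the 599 listed lower. Klf4, whose product represses smooth muscle genes and is abundant in differentiated colonocytes, stood at 7078 ± 7375 in KO and 2901 ± 1453 in WT. KO replicate 4 held 18058, and without it the ratio moved from 2.44 to 1.18.

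Of 11 pericyte genes, 3 were listed (27.3%, against 7.15% of all genes). All 3 were lower in KO, where 58.1% of the listed genes were higher. Kcnj8, which encodes the pore of a vascular potassium channel, averaged 102.9 ± 27.3 normalized counts (SD, n = 4) in KO against 175.3 ± 77.5 in WT. Ndufa4l2 stood at 14.7 ± 10.1 in KO, with WT libraries between 23.6 and 69.8. Its highest KO library, at 23.1, lay just below them. Of the listed genes, 20.7% were below without overlap, a base that includes the 829 listed higher. Higd1b was 0 in the 4 KO libraries, and in WT it held 2.92, 1.03, 3.03 and 8.09 normalized counts, from 15 reads. The pericyte genes Rgs5, Cspg4 and Notch3 were not listed.

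**Figure D2:**
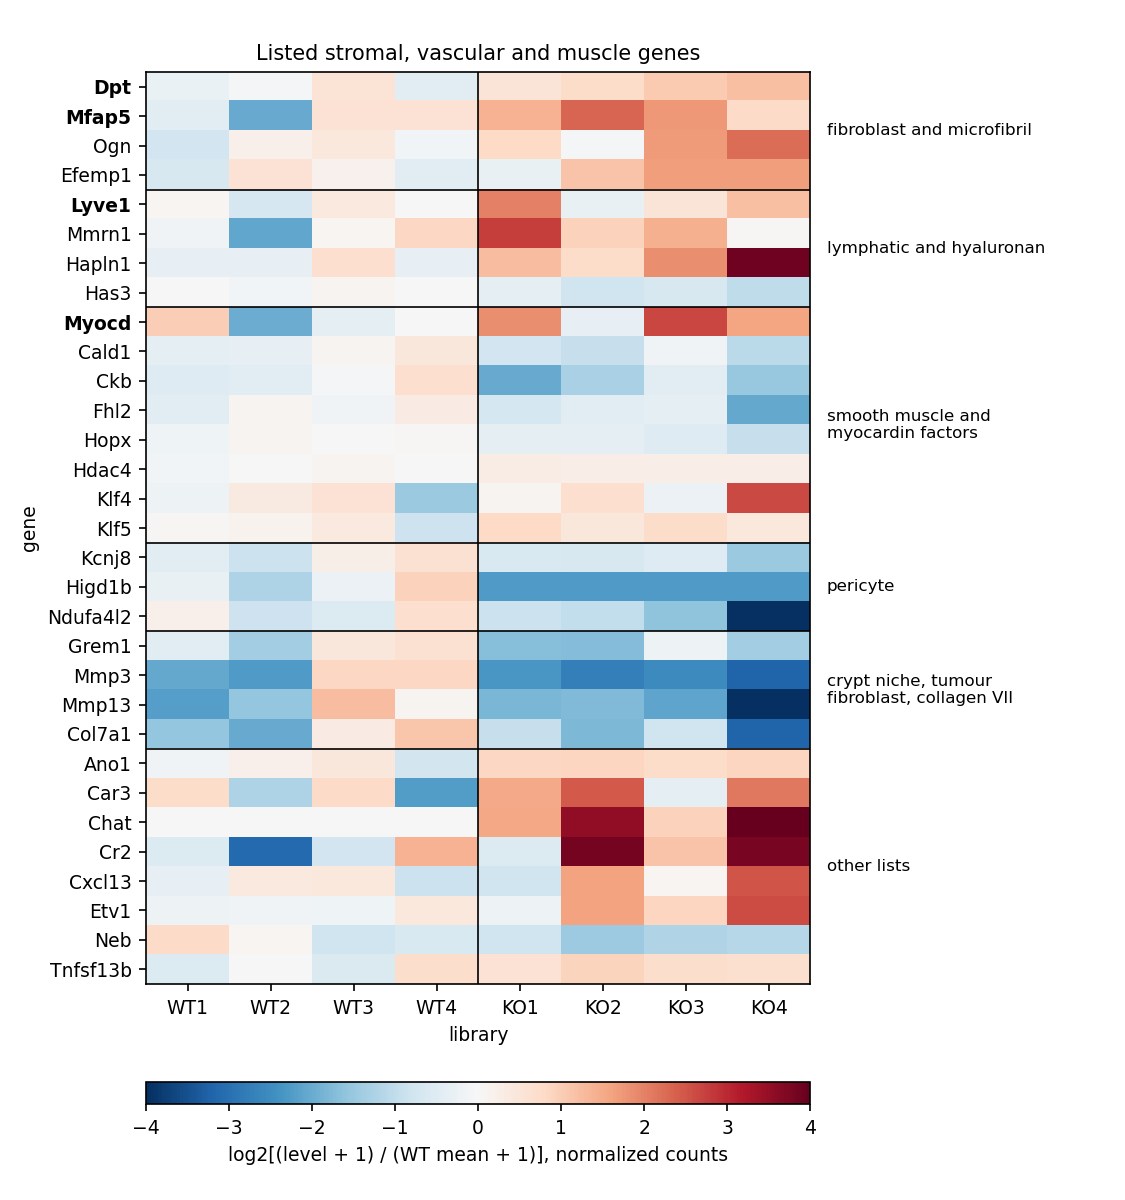
Level of each of the 31 listed genes of the stromal, vascular and muscle lists (rows, the 4 genes described here in bold) in each library (columns), as log2 of the level plus 1 over the WT mean plus 1; red is above the WT mean, blue below, and colours are cut at -4 and 4. In KO, Dpt, Mfap5, Ogn, Efemp1, Lyve1 and Mmrn1 lie mostly above the WT mean. Kcnj8, Higd1b, Ndufa4l2, Grem1, Mmp3, Mmp13, Cald1 and Ckb lie mostly below it. Most genes of these lists were not listed, so the rows give no direction for a cell type.

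Genes whose pattern was most like each of the 4 were taken from the other listed coding genes with a mean of at least 10 normalized counts, 963 or 964 of them. The measure was Pearson's r over 8 libraries on the log2(normalized count + 1) scale, after each group's mean was subtracted. With so many candidates and 8 libraries, high values come about by selection alone and are given as a description. For Dpt the nearest were Chdh at 0.95, Scamp1 at 0.85 and Nrap at 0.85, and all 3 were also listed higher in KO. For Mfap5 they were Ascl2 at 0.93, Ube2s at 0.90 and the pericyte gene Kcnj8 at 0.89, all 3 listed lower in KO. For Lyve1 they were Synrg at 0.94, Crym at 0.84 and Cxxc1 at 0.80, all 3 listed higher in KO. For Myocd they were Azin2 at 0.87, Epdr1 at 0.77 and Hist4h4 at 0.77. Of these, Azin2 and Hist4h4 were listed lower in KO and Epdr1 higher. No gene was named for more than 1 of the 4.

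The last comparison asked how far the differences in the 4 genes depended on the fit and on single libraries. In the 58 refits, each gene stayed higher in KO and none reached an adjusted p of 0.05. Neither is particular to the 4 genes. The share of listed genes that were higher stayed between 57.8% and 58.1% in every fit. In each edgeR and limma fit 0 listed genes passed adjustment, and in the DESeq2 refit 37 of 1428 did. The log2 fold change of Dpt lay between 0.75 and 1.16, that of Lyve1 between 0.61 and 1.39, that of Mfap5 between 1.53 and 2.84 and that of Myocd between 1.53 and 2.82. The narrowest range belonged to Dpt, the gene with the most reads. The values furthest from 0 for Mfap5 and Myocd came from a pseudocount of 0.1 and from leaving out WT replicate 1, respectively.

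**Figure D3:**
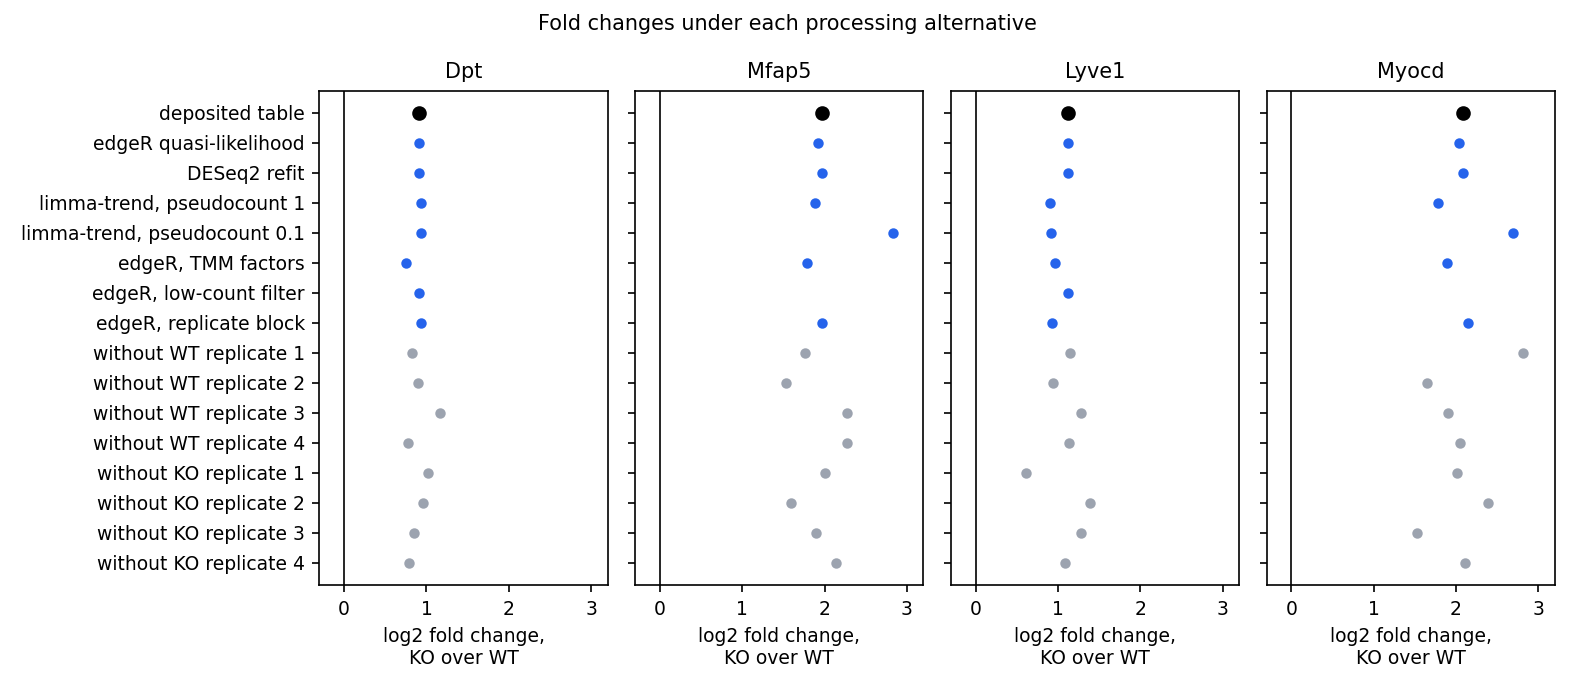
Log2 fold change of KO over WT (horizontal axes) for the 4 genes under each fit (vertical axis): the deposited table in black, other tools, scalings and filters in blue, and edgeR fits without 1 library in grey. All points lie above 0, and the points of Dpt span 0.75 to 1.16; the low-count filter leaves no point for Mfap5 and Myocd.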

How the data were processed

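RNA was extracted from mouse colon tumours with TRIzol and made into strand-marking libraries with the NEBNext Ultra Directional kit, per the labels' protocols. HISAT2, DESeq2 and GRCh38, a human build, appear in the submitters' processing notes, whereas the table's gene identifiers are of the mouse C57BL/6NJ annotation; coordinates are printed as deposited. Whether counting used strand was not stated.

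The authors' deposited table holds a normalized signal per library (counts divided by size factors), group means, log2 fold changes, p-values and adjusted p-values. Within 0.001, 100% of the values in each library were whole reads times 1 factor. The 19985 genes behind the adjustment follow from how adjusted and unadjusted p relate at each rank. Same-group libraries differed beyond counting noise and were not merged.

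Means and SDs were computed from the normalized values. The deposited DESeq2 fit is the main test. Recovered reads were refitted with edgeR 4.0.16, DESeq2 1.42.0 and limma 3.58.1 in R 4.3.3, adjusted by Benjamini-Hochberg over 19985 genes, in code tested on simulated data. Since the listed genes are selected, the refits are no independent test. The 4 genes and all lists were chosen with earlier results of these data known. Beside the 4, the text names listed genes of the 19 lists, up to 4 each from the B cell, colonocyte and epithelial lists, and the 3 most alike genes of each of the 4; genes stated as not listed were picked from the lists as examples.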

Additional observations from a re-analysis of the deposited data

Results flagged for a closer look

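Among 51 genes, those named in the text and the B cell genes Bank1, Cd22, Cd79a and Pou2af1, 100 groups of 4 libraries were examined for a single library far from the other 3, and 12 were found where chance gives about 1 in 20. None of the 12 was in Dpt, Mfap5, Lyve1 or Myocd. In 7 of them KO replicate 4 was high, 6 with many reads. It was high for Klf4 at 18058 normalized counts (2471 to 4627 in the others), Hnf4g at 512.7, Lypd8 at 243970, Cdhr5 at 18826, Mep1a at 4431 and Scamp1 at 1038. The other was Hapln1, at 17.6. KO replicate 3 was high for Grem1, at 468 against 160.7 to 205.5, and for Epdr1, at 66.7, and KO replicate 2 was low for Azin2, at 39.7. In WT, replicate 4 was high for Etv1, at 5.06, and replicate 3 for Hapln1, at 1.01, which is a single read.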

How the results depend on the processing

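For Dpt, Mfap5, Lyve1 and Myocd, each of the 58 alternative values kept its direction and stayed above an adjusted p of 0.05. Among all listed genes the share higher was likewise between 57.8% and 58.1% in every fit, and 0 passed adjustment in any edgeR or limma fit. The filter on a mean of 10 normalized counts gave no value for Mfap5 or Myocd. TMM factors could be computed only from the listed genes, which were selected by p, so they are no neutral scaling. Scaling by these factors lowered the median listed gene by 0.16 on the log2 scale. It gave 0.75 for Dpt, 1.78 for Mfap5, 0.96 for Lyve1 and 1.89 for Myocd. With the replicate number as a block the values were 0.93, 1.96, 0.93 and 2.14 in that order. Correlations of same-numbered libraries were 0.10, -0.12, -0.28 and -0.30 across 964 genes, so the numbers are not taken to pair them. Of the 18 stromal, vascular and muscle genes listed higher, 11 kept an unadjusted p below 0.05 in the edgeR refit, 8 with the replicate block and 5 to 11 without 1 library (lowest without WT replicate 1). Of all genes listed higher, 78.2%, 39.1% and 42.3% to 75.6% did. Of the 13 listed lower, 8, 7 and 4 to 11 did (lowest without KO replicate 2), against 77.5%, 39.2% and 42.4% to 68.8% of all genes listed lower; the cause was not tested. Mfap5 and Myocd rest on 12 WT reads each, so few reads limit their precision.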

Other observations

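Markers of other cells that lie between or beneath the crypts were listed in small numbers. Of 7 genes of interstitial cells of Cajal, the pacemaker cells of the gut, 2 were listed (28.6%, against 7.15% of all genes), both higher. Ano1, a calcium-activated chloride channel that epithelial cells also carry, averaged 4872 ± 197 normalized counts (SD, n = 4) in KO against 2755 ± 900 in WT, with no overlap between the groups. The KO libraries lay wholly above in 342 of the 1428 listed genes (23.9%), a base that includes the 599 listed lower. Etv1 stood at 12.3 ± 10.2 and 3.52 ± 1.03, and its ratio moved from 3.5 to 2.16 without KO replicate 4. Chat, which encodes the acetylcholine-making enzyme of enteric neurons and tuft cells, was listed at 0 in the 4 WT libraries and held 1.93, 10.7, 0.89 and 39.1 in KO replicates 1 to 4. Car3, a carbonic anhydrase of fat cells, averaged 14.9 ± 9.52 in KO against 3.73 ± 3.74 in WT, and Neb, a giant protein of striated muscle filaments, at 40.9 ± 8.26 and 90.6 ± 47.0. No gene of 8 mesothelial genes was listed.

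Of 10 follicular stroma genes, 3 were listed (30.0%, against 7.15% of all genes), all higher, where 58.1% of the listed genes were. Cxcl13, a chemokine that draws B cells into follicles, held 29.9, 160.7, 55.2 and 300.4 normalized counts in KO replicates 1 to 4, against 28.3 to 69.8 in WT, and its ratio moved from 2.62 to 1.57 without KO replicate 4. Cr2, which follicular dendritic cells share with B cells, stood at 65.0 ± 62.2 (SD, n = 4) in KO against 7.54 ± 9.38 in WT, and its ratio moved from 8.62 to 21.9 without WT replicate 4. Tnfsf13b, a B cell survival factor, averaged 146.0 ± 14.3 in KO against 89.3 ± 40.2 in WT. KO replicates 2 and 4 were the highest KO libraries for both Cxcl13 and Cr2, and KO replicate 2 was the lowest for Lyve1 and Myocd. None of these genes passed an adjusted p of 0.05 in the authors' deposited table.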
